A study of Danio rerio with 2 samples.

Results

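Cells of the zebrafish trunk that carried the enteric neuron profile with vip, galn and nos1 were examined in sorted neural crest derivatives. A cell was selected when it held at least 1 UMI (unique molecular identifier, a counted RNA molecule) of phox2bb, at least 3 UMIs summed over vip, vipb, galn and nos1, and at least 1 UMI summed over elavl3 and elavl4. This rule took 903 of 11283 cells, 446 of 6795 in the CVT-10216 library and 457 of 4488 in the DMSO library. All embryos were Tg(crestin:mCherry;mitfa:GFP), in which crestin drives mCherry in neural crest derivatives and mitfa drives GFP in pigment cells. All were given MoTP, a drug that kills melanocytes, from 24 hpf until washout at 64 hpf, and trunks were collected after 8 h of melanocyte regeneration, at 72 hpf. A pool of embryos was also given CVT-10216, an inhibitor of the aldehyde dehydrogenase ALDH2, and the other the vehicle DMSO, both from 24 hpf. Cells with GFP, mCherry or both were sorted together, so that the selected neurons are those that the transgenes and the sort let through. With 1 library per condition there was no replicate and no test, and all intervals are 95% intervals that cover counting error only.

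The enteric nervous system is built by neural crest cells that enter the gut and spread along it under control of the receptor Ret and of transcription factors such as Hand2 and Sox10. Vasoactive intestinal peptide, galanin and nitric oxide are products of inhibitory motor neurons and interneurons of the gut wall. Nitric oxide, made by the neuronal synthase Nos1, and VIP relax gut muscle. In zebrafish, vip and vipb are both genes of the VIP family.

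The selected neurons were deep cells, with a median of 26401.5 UMIs and 4845 genes in the CVT-10216 library and 23579 UMIs and 4361 genes in the DMSO library. The medians of all cells were 9487 UMIs in the CVT-10216 library and 8581 UMIs in the DMSO library. Nearest to them were other phox2bb neurons, which held phox2bb and elavl3 or elavl4 but at most 2 UMIs of the 4 product genes. These were 543 cells with a median of 14073 UMIs in the CVT-10216 library and 731 cells with a median of 13543 UMIs in the DMSO library. A second comparison group, neurons without phox2bb, held at least 3 UMIs of elavl3 and elavl4, no phox2bb and at most 2 UMIs of the 4 product genes. It had 718 cells in the CVT-10216 library and 412 in the DMSO library. Cells with macrophage markers, which should lack all 4 product genes, gave the level of free RNA (140 cells with a median of 12740.5 UMIs in the CVT-10216 library, 92 cells with a median of 9879.5 UMIs in the DMSO library). Shares of cells with a UMI are given for cells thinned to 4000 UMIs where stated, which kept 439 of 446 selected neurons in the CVT-10216 library and 434 of 457 in the DMSO library. Doublets were not removed, and 4 barcode sequences occurred in both libraries, none of them in a selected neuron.

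Among all cells that held at least 3 UMIs of the product genes, few lacked the other parts of the rule. In the CVT-10216 library 26 of 480 such cells had no phox2bb, and in the DMSO library 10 of 474. A further 8 cells of the CVT-10216 library and 7 of the DMSO library had phox2bb but neither elavl3 nor elavl4. Selected neurons were 6.56% of CVT-10216 cells (5.99 to 7.18) and 10.2% of DMSO cells (9.31 to 11.1), a log2 ratio of −0.63 (−0.83 to −0.44). As a share of cells with phox2bb and elavl3 or elavl4, however, they were 446 of 989 (45.1%, 42.0 to 48.3) in the CVT-10216 library and 457 of 1188 (38.5%, 35.7 to 41.3) in the DMSO library, a log2 ratio of 0.23. The direction thus turned with the denominator, and the first share depends on the makeup of all sorted cells.

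The threshold of 3 UMIs cut through a gradient. At a sum of 2, just outside, there were 37 CVT-10216 cells and 56 DMSO cells, and at a sum of 3, just inside, 20 CVT-10216 cells and 39 DMSO cells. The level of gap43, given like all levels in CPM (UMIs of a gene scaled to the same total of UMIs for each group of cells), was 388 CPM outside and 412 CPM inside in the CVT-10216 library, and 322 CPM outside and 344 CPM inside in the DMSO library. The level of etv1 was 253 CPM outside and 278 CPM inside in the CVT-10216 library, and 292 CPM outside and 355 CPM inside in the DMSO library. Cells on either side of the threshold were thus much alike in both markers.

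Of the product genes, vipb made up most of the UMIs. It gave 77.6% of the UMIs of the 4 genes in CVT-10216 selected neurons and 77.4% in DMSO selected neurons, at 4882 CPM and 3676 CPM. A UMI of vipb was found in 94.8% of CVT-10216 selected neurons and in 93.0% of DMSO selected neurons. After thinning, these shares were 80.2% (76.1 to 83.8) in CVT-10216 and 72.6% (68.1 to 76.7) in DMSO. In macrophage-marker cells the thinned shares of vipb were 3.1% in CVT-10216 and 6.17% in DMSO, at 8.45 and 11.3 CPM, so that a little vipb was found in cells that should lack it. Per selected neuron, the median was 91 UMIs of vipb with a highest value of 1264 in CVT-10216, and 28 UMIs with a highest value of 817 in DMSO.

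The neuronal nitric oxide synthase gene nos1 was the second most widely held product gene. It had 377 CPM in CVT-10216 and 340 CPM in DMSO selected neurons, and after thinning 56.5% (51.7 to 61.2) of CVT-10216 cells and 51.4% (46.6 to 56.2) of DMSO cells held it. It was held at low counts, with a median of 6 UMIs and a highest value of 85 in CVT-10216 cells, and a median of 4 UMIs and a highest value of 117 in DMSO cells. In macrophage-marker cells nos1 was not detected in the 140 CVT-10216 cells and was detected in 2 of the 92 DMSO cells. For the CVT-10216 cells this allows a share of up to 2.14% by the limit of 3 counts (3 over the number of cells). The exact interval reaches 2.60%.

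The galanin gene galn was held by fewer cells but reached high counts in some. Its level was 725 CPM in CVT-10216 and 584 CPM in DMSO selected neurons, and after thinning 35.3% (30.8 to 40.0) of CVT-10216 cells and 23.5% (19.6 to 27.8) of DMSO cells held it. The highest count was 508 UMIs in a CVT-10216 cell and 780 UMIs in a DMSO cell. That DMSO cell alone gave 9.64% of the galn UMIs of its library, and in both libraries most galn came from a minority of the selected neurons.

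The gene vip was held by 39.2% (34.6 to 43.9) of CVT-10216 cells and 23.5% (19.6 to 27.8) of DMSO cells after thinning, at 311 CPM in CVT-10216 and 149 CPM in DMSO. In macrophage-marker cells it had 0 UMIs in CVT-10216 (up to 2.14% of cells by the limit of 3 counts) and 1 UMI in DMSO. Since vip and vipb are related genes counted from the 3′ ends of transcripts, reads that could not be told apart may have been split between them or lost, and their relative levels are uncertain to that extent. Levels of different genes are per UMI and not per length.

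**Figure D1:**
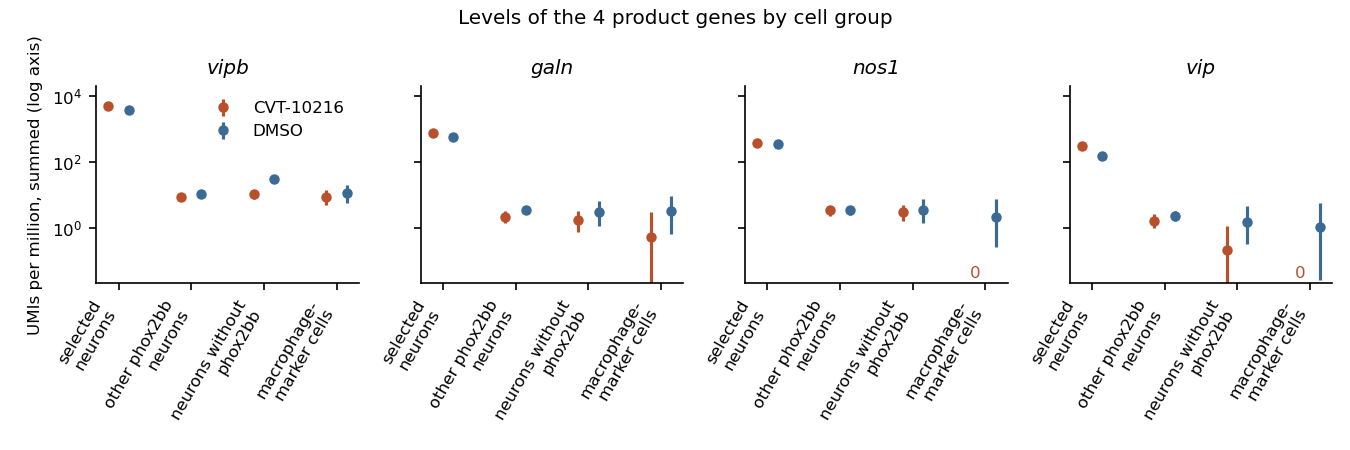
Levels in CPM of vip, vipb, galn and nos1 (log axis) in selected neurons, other phox2bb neurons, neurons without phox2bb and macrophage-marker cells of each library, with exact Poisson 95% intervals and a 0 where no UMI was found. Selected neurons stand apart by the rule, and no gene is above 28.97 CPM in any of the other 3 groups of either library.

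Most selected neurons held more than 1 of the product genes. At least 2 genes were held by 90.6% of CVT-10216 and 86.2% of DMSO selected neurons, and by 67.4% and 54.6% of the thinned CVT-10216 and DMSO cells. All 4 genes were found together in 147 CVT-10216 cells (33.0%) and in 83 DMSO cells (18.2%), or in 63 (14.4%) and 39 (8.99%) of the thinned CVT-10216 and DMSO cells. In CVT-10216 cells this was the most frequent of the 15 combinations. In DMSO cells the most frequent was vipb with nos1 alone, found in 74 CVT-10216 cells (16.6%) and 132 DMSO cells (28.9%). Next came vip, vipb and nos1 without galn, in 74 CVT-10216 and 53 DMSO cells, and vipb, galn and nos1 without vip, in 56 CVT-10216 and 68 DMSO cells. Only vipb was found in 24 CVT-10216 and 43 DMSO cells.

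Combinations that lacked vipb were rare in both libraries. Galn and nos1 without either VIP gene were found in 1 CVT-10216 cell and 6 DMSO cells. Only nos1 was found in 6 CVT-10216 and 9 DMSO cells, only vip in 7 CVT-10216 and 9 DMSO cells, and only galn in 5 CVT-10216 and 2 DMSO cells. Since a gene held at few UMIs can be missed, a combination without a gene means that no UMI of it was counted.

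**Figure D2:**
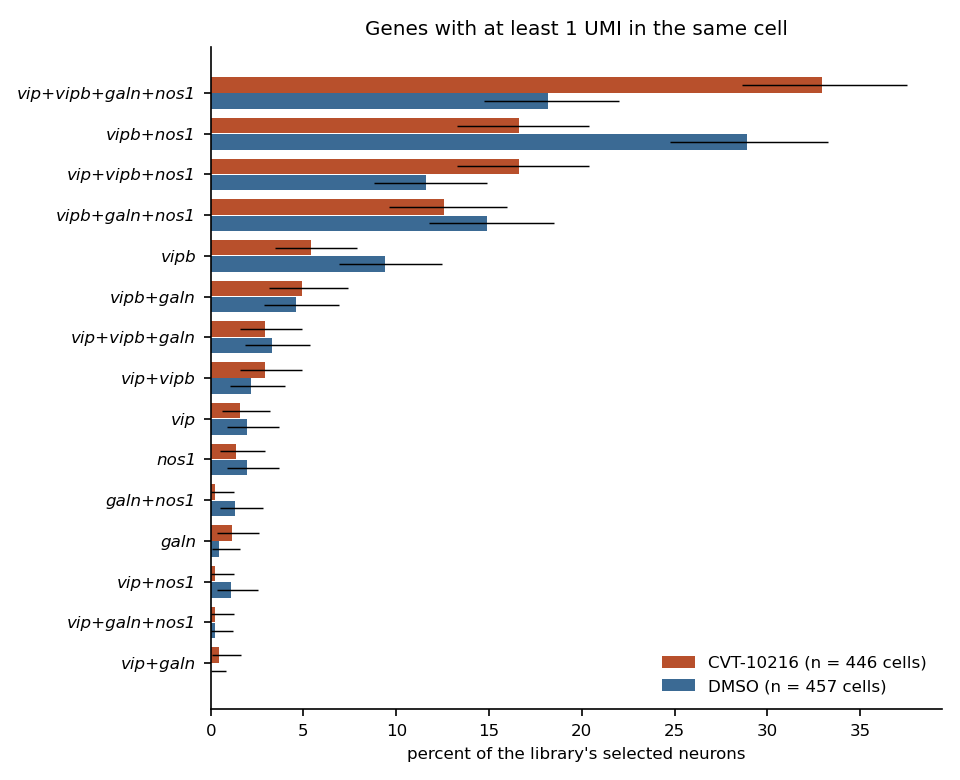
Number of selected neurons with each of the 15 combinations of vip, vipb, galn and nos1 in the CVT-10216 and DMSO libraries, unthinned. All 4 genes together were found in 147 CVT-10216 cells (33.0%) and 83 DMSO cells (18.2%), and vipb with nos1 alone in 74 CVT-10216 cells (16.6%) and 132 DMSO cells (28.9%).

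The gene with the most UMIs in a cell was vipb in 350 of 446 CVT-10216 cells (78.5%) and 351 of 457 DMSO cells (76.8%). Galn led in 34 CVT-10216 and 18 DMSO cells, nos1 in 31 CVT-10216 and 49 DMSO cells, and vip in 20 CVT-10216 and 23 DMSO cells, with ties in the rest. Of the thinned cells that held nos1, 94% in CVT-10216 and 88.8% in DMSO also held vipb, against 62.3% and 55.5% of those without nos1. Of those that held vip, 47.1% in CVT-10216 and 46.1% in DMSO also held galn, against 27.7% and 16.6% of those without vip. Across thinned cells of a library, which share its depth and free RNA, the rank correlation of vipb with nos1 was 0.69 in CVT-10216 (439 cells) and 0.66 in DMSO (434 cells). That of galn with nos1 was 0.26 in CVT-10216 and 0.34 in DMSO, and that of vip with galn was 0.29 in CVT-10216 and 0.37 in DMSO. Vip with vipb had 0.45 and 0.34, galn with vipb 0.38 and 0.40, and vip with nos1 0.30 and 0.27. The 2 most widely held genes thus had the highest correlation, and the other pairs were lower but all positive. Most thinned cells had 0 UMIs of vip and of galn, which limits the rank correlations of these genes.

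The amount of product RNA per cell spread widely. The summed UMIs of the 4 genes had a median of 123.5 (quartiles 14.25 and 343.75, highest 1320) in CVT-10216 cells and a median of 38 (quartiles 7 and 216, highest 1330) in DMSO cells. At least 100 UMIs were held by 52.2% of CVT-10216 cells (47.5 to 57.0) and by 37.9% of DMSO cells (33.4 to 42.5). The selected cells were therefore divided by this sum into 3 to 9, 10 to 29, 30 to 99, from 100 to under 300 and at least 300 UMIs, with 85, 68, 60, 106 and 127 cells in CVT-10216 and 140, 76, 68, 98 and 75 cells in DMSO. The rule and this division used the 4 product genes, and other genes were read across it as a description.

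Some neuronal genes, chosen after their values were seen, had higher levels in the highest than in the lowest division in both libraries. Gap43, a growth cone protein, had 487 CPM in the lowest and 1566 CPM in the highest division in CVT-10216 cells, and 471 CPM and 1781 CPM in DMSO cells. Stmn2b, a microtubule regulator of growing axons, had 118 CPM and 809 CPM in the lowest and highest divisions in CVT-10216 cells and 98.3 CPM and 957 CPM in DMSO cells. Syt1a, the calcium sensor of vesicle release, had 259 CPM and 877 CPM in CVT-10216 cells and 220 CPM and 859 CPM in DMSO cells. Elavl4, a neuronal RNA-binding protein and part of the rule, had 686 CPM and 1594 CPM in CVT-10216 cells and 310 CPM and 1470 CPM in DMSO cells.

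The same was seen for 2 genes of other transmitters. Tph1b, a tryptophan hydroxylase of serotonin synthesis, had 97.4 CPM in the highest division in CVT-10216 cells and 117 CPM in DMSO cells, and under 7 CPM in the lowest division of either. Adcyap1b, which encodes the peptide PACAP, had 71.5 CPM in the lowest and 435 CPM in the highest division in CVT-10216 cells, and 31.8 CPM and 821 CPM in DMSO cells. The transcription factor gene etv1 had 366 CPM and 845 CPM in CVT-10216 cells and 376 CPM and 1015 CPM in DMSO cells, and phox2bb was nearly level, with 1704 CPM and 1944 CPM in CVT-10216 cells and 1568 CPM and 1829 CPM in DMSO cells.

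Pcna, foxd3 and sox10 were lower in the highest division, but were not absent. Pcna, the DNA polymerase clamp, had 723 CPM in the lowest and 493 CPM in the highest division in CVT-10216 cells and 787 CPM and 430 CPM in DMSO cells. Foxd3, a neural crest factor, had 450 CPM and 357 CPM in CVT-10216 cells and 457 CPM and 277 CPM in DMSO cells. Sox10, which marks crest progenitors and glia, had 163 CPM and 120 CPM in CVT-10216 cells and 156 CPM and 101 CPM in DMSO cells. Thinned cells with at least 10 UMIs over 21 replication and mitosis genes were 47.6% and 27.6% of the lowest and highest divisions in CVT-10216 cells, and 56.4% and 33.3% in DMSO cells. A cell of high product RNA was thus less often one with many replication transcripts, in both libraries, within wide intervals (20.01 to 36.19 in the highest CVT-10216 and 22.9 to 45.2 in the highest DMSO division).

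**Figure D3:**
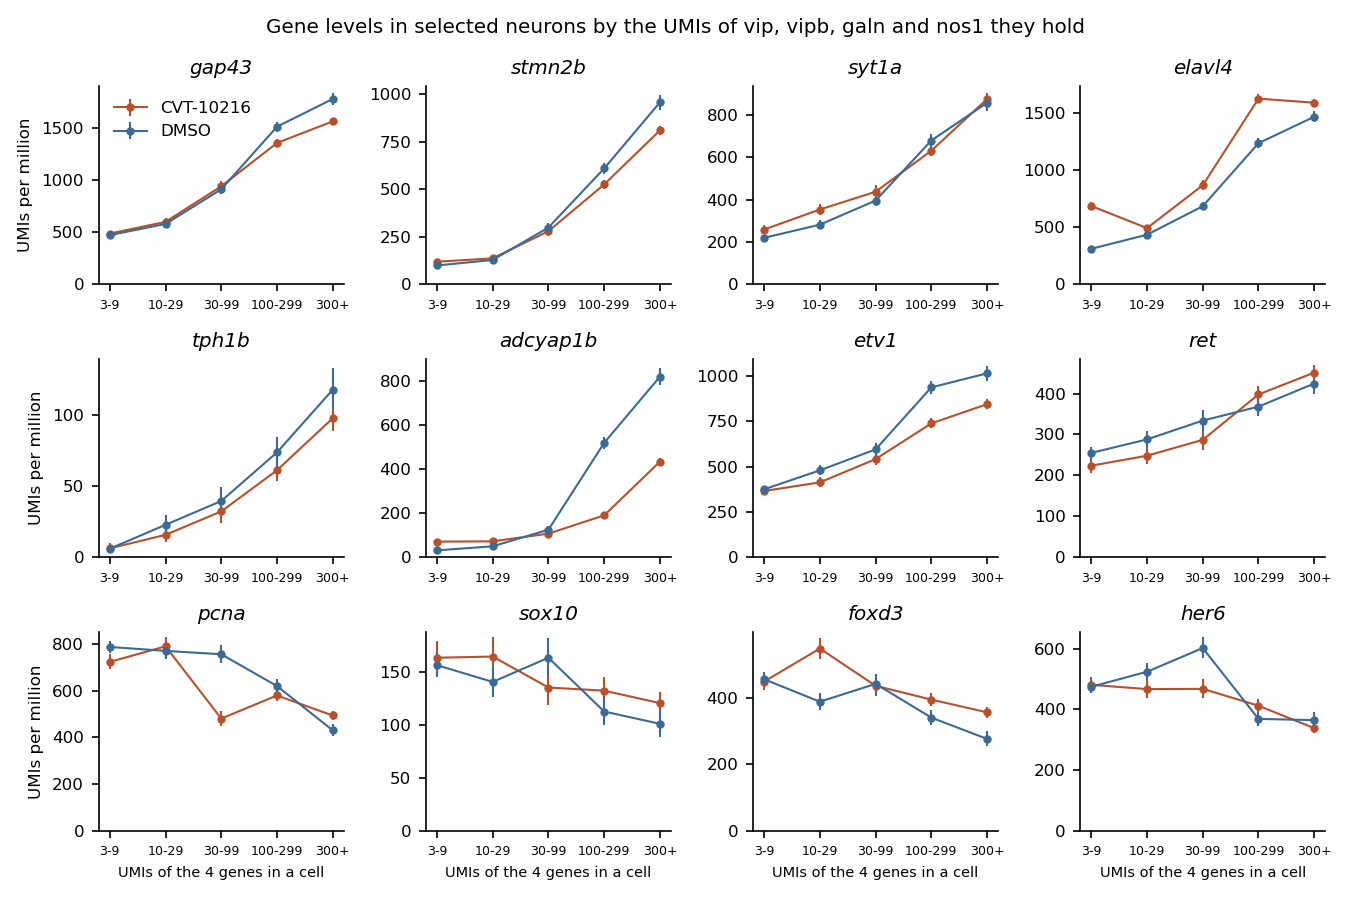
Levels in CPM of 12 genes in selected neurons divided by their summed UMIs of vip, vipb, galn and nos1, for both libraries, with exact Poisson 95% intervals. The levels of gap43, stmn2b, syt1a, tph1b and adcyap1b are higher in the highest than in the lowest division (gap43 1566 against 487 CPM in CVT-10216), and those of pcna, sox10 and foxd3 are lower.

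Some genes of the autonomic and enteric lineage outside the rule were read beside the label of enteric neurons. Phox2a had 770 CPM in CVT-10216 and 674 CPM in DMSO selected neurons, hand2 1599 CPM and 1219 CPM, and ret 349 CPM and 322 CPM. In neurons without phox2bb the same genes had 4.52 CPM in CVT-10216 and 16.5 CPM in DMSO for phox2a, 20.5 and 28.5 CPM for hand2, and 51.5 and 53.9 CPM for ret. That group was chosen to lack phox2bb, and of 48 autonomic and enteric factors tested against it 11 were higher and 22 lower. Against other phox2bb neurons, phox2a, hand2 and ret did not pass 2-fold. These genes therefore cannot tell enteric neurons from other phox2bb neurons. The given markers etv1 and gap43 were present too, at 636 and 1109 CPM in CVT-10216 and 640 and 970 CPM in DMSO. Transcripts of replication and of crest progenitors, however, stood beside them. Thinned cells with at least 10 UMIs of the 21 replication and mitosis genes were 37.8% of CVT-10216 and 50% of DMSO selected neurons. They were 42.7% of CVT-10216 and 55.7% of DMSO other phox2bb neurons. Of the neurons without phox2bb they were 11.4% in CVT-10216 and 12.9% in DMSO. Thinning kept only 370 of 718 CVT-10216 and 147 of 412 DMSO neurons without phox2bb. Sox10 was found in 36.7% of thinned CVT-10216 and 31.6% of thinned DMSO selected neurons, and foxd3 in 58.8% and 53%. The selected cells were thus not purely postmitotic neurons by their transcripts, and the part of free RNA, doublets or progenitors in this was not tested. In macrophage-marker cells the share with at least 10 UMIs of the replication genes was 27.1% in CVT-10216 and 23.5% in DMSO.

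Against neurons without phox2bb, 803 of 13522 tested genes (5.94%) were at least 2-fold higher and 2926 (21.6%) at least 2-fold lower in both libraries in the selected neurons. Genes were tested where they had at least 50 summed UMIs. With TMM factors in place of library totals, 1694 were higher and 1986 lower, so that the balance of directions rests on the scaling. All 22 cell cycle genes were higher, 11 of 48 autonomic and enteric factors were higher and 22 lower, and 23 of 34 synaptic vesicle genes and 10 of 10 genes of GABA, glycine and glutamate transmission were lower. Snap25a, a core protein of vesicle fusion, had 125 CPM in CVT-10216 and 81.8 CPM in DMSO selected neurons, against 605 CPM and 734 CPM in the CVT-10216 and DMSO neurons without phox2bb. The neurons without phox2bb were shallower, with medians of 4100 UMIs in CVT-10216 and 3256.5 UMIs in DMSO.

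The closer comparison was with other phox2bb neurons, which held phox2bb by their definition and from which phox2a, hand2 and ret differed by less than 2-fold. Of 13909 genes tested, 348 (2.5%) were at least 2-fold higher and 464 (3.34%) at least 2-fold lower in the selected neurons in both libraries, and the median log2 ratio of all genes was −0.06. The selected neurons held more RNA of axon growth, ion channels and a few enteric transmitter genes, and less of catecholamine, sensory and some posterior Hox genes. The product genes were set by the rule, and genes that follow them or the depth of a cell were therefore bound to move with it.

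Of 48 listed autonomic and enteric factors tested, 6 were higher and 8 lower, against 2.5% higher and 3.34% lower among all genes. Etv1, an ETS factor, had 636 CPM in CVT-10216 and 640 CPM in DMSO selected neurons, against 153 CPM and 201 CPM in CVT-10216 and DMSO other phox2bb neurons. Ebf3a had 161 CPM in CVT-10216 and 131 CPM in DMSO selected neurons, against 42.7 CPM and 23.5 CPM in other phox2bb neurons. Tbx2a had 236 and 165 CPM in CVT-10216 and DMSO selected neurons, against 81.1 and 81.5 CPM. The homeobox cofactor genes meis1b (779 and 674 CPM, against 315 and 281 CPM) and pbx1a (264 and 216 CPM, against 90.7 and 62.4 CPM) and the zinc finger gene klf7b (260 and 194 CPM, against 107 and 69.1 CPM) were higher as well, each pair given as CVT-10216 and DMSO.

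The broad factors of the lineage did not pass 2-fold. Phox2a, hand2, hmx2 and hmx3a had log2 ratios between 0.55 and 0.75 in both libraries, and tlx2 had 289 CPM in CVT-10216 and 264 CPM in DMSO selected neurons, against 298.9 CPM and 264 CPM in other phox2bb neurons. Ret, the receptor for GDNF, had log2 ratios of 0.82 in CVT-10216 and 0.42 in DMSO, and its coreceptor gfra1a 0.81 and 0.57. Ascl1a, a proneural factor, was at −0.13 in CVT-10216 and −0.26 in DMSO. Among receptors of axon guidance, nrp2a, a neuropilin, was higher, with 208 CPM in CVT-10216 and 182 CPM in DMSO selected neurons against 65.8 CPM and 76.6 CPM in other phox2bb neurons.

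Lower factors and receptors included those of sympathetic and sensory neurons. Isl1, a LIM homeobox factor of both, had 27.2 CPM in CVT-10216 and 9.52 CPM in DMSO selected neurons, against 115 CPM and 65.5 CPM in other phox2bb neurons. Gata2a, a factor of sympathetic neurons, had 10.8 CPM in CVT-10216 and 3.90 CPM in DMSO selected neurons, against 53.7 CPM and 36.9 CPM. Gfra3, the coreceptor for artemin, had 10.9 CPM in CVT-10216 and 2.38 CPM in DMSO selected neurons, against 40.8 CPM and 24.9 CPM. Of 10 sympathetic and chromaffin markers tested 6 were lower and none higher, and of 16 sensory neuron markers 9 were lower and none higher. Among all genes tested, 3.34% were lower and 2.5% higher.

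Genes of noradrenaline synthesis were among those furthest below the other phox2bb neurons. Th, tyrosine hydroxylase, had 20.4 CPM in CVT-10216 and 2.74 CPM in DMSO selected neurons, against 105 CPM and 69.4 CPM in other phox2bb neurons. Dbh, dopamine beta-hydroxylase, had 52.0 CPM in CVT-10216 and 7.86 CPM in DMSO selected neurons, against 295 CPM and 208 CPM, and a UMI of it was found in 58 selected cells. The noradrenaline transporter slc6a2 had 6.74 CPM in CVT-10216 and 1.08 CPM in DMSO selected neurons, against 43.4 CPM and 18.7 CPM.

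Of serotonin and acetylcholine genes, tph1b stood highest relative to the other phox2bb neurons. It had 52.8 CPM in CVT-10216 and 45.2 CPM in DMSO selected neurons, against 2.14 CPM and 2.45 CPM in other phox2bb neurons. Slc18a2, the vesicular transporter of monoamines, had only 1.001 CPM in CVT-10216 and 0.94 CPM in DMSO selected neurons. Slc5a7a, the choline transporter, had 48.0 CPM in CVT-10216 and 29.2 CPM in DMSO selected neurons, against 8.66 CPM and 4.64 CPM, whereas chata, choline acetyltransferase, did not pass 2-fold (23.2 and 11.2 CPM in CVT-10216 and DMSO selected neurons, against 22.4 and 9.15 CPM). Slc18a3a, the vesicular acetylcholine transporter, did not pass either, at log2 ratios of 0.11 in CVT-10216 and 0.82 in DMSO. Of 9 tested genes of GABA, glycine or glutamate transmission none was higher and 3 were lower, with a median log2 ratio of −0.95. Of all genes tested, 2.5% were higher and 3.34% lower.

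Further peptide genes were mostly near 0. Of 9 other neuropeptide genes tested, adcyap1b was higher, with 220 CPM in CVT-10216 and 273 CPM in DMSO selected neurons against 102 CPM and 33.3 CPM, and 2 were lower. Penka, tac1 and npy were at most 4.21 CPM in either library of selected neurons. Vgf, a precursor of secreted peptides and a granule protein, had 362 CPM in CVT-10216 and 323 CPM in DMSO selected neurons, against 63.0 CPM and 50.1 CPM, and pam, the amidating enzyme of peptides such as VIP, had 50.9 CPM and 41.5 CPM, against 19.1 CPM and 16.7 CPM. The convertase genes pcsk1 and pcsk2 were at 2.34 CPM or less. Of 17 genes of peptide processing and dense core granules 3 were higher and none lower, with a median log2 ratio of 0.42. Among all genes tested, 2.5% were higher and 3.34% lower.

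The 8 listed receptor genes for VIP, PACAP and galanin summed to 4.87 CPM in CVT-10216 and 2.09 CPM in DMSO selected neurons. Of these, 2 had enough UMIs to be tested, 1 of them lower and none higher. The list left out adcyap1r1a.1, named as a PACAP receptor gene. In thinned selected neurons with at least 10 product UMIs it had 86 UMIs. Its level was 93.1 CPM with vip and 33.0 CPM without in CVT-10216, and 44.5 CPM and 10.7 CPM in DMSO. In the nitric oxide pathway 1 of 11 genes was higher, against 2.5% of all genes. It was gucy1b1, a subunit of the nitric oxide receptor guanylate cyclase. Its level was 7.01 CPM in CVT-10216 and 4.62 CPM in DMSO selected neurons, against 2.05 CPM and 1.46 CPM.

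Subunits of the nicotinic acetylcholine receptor of autonomic ganglia were higher together. Chrna3 had 109 CPM in CVT-10216 and 69.2 CPM in DMSO selected neurons, against 27.9 CPM and 16.05 CPM in other phox2bb neurons. Chrna5 had 85.9 and 93.2 CPM in CVT-10216 and DMSO selected neurons, against 41.3 and 41.3 CPM. Chrnb4 had 49.1 and 37.2 CPM, against 22.1 and 13.1 CPM. These were the 3 higher of 20 transmitter receptor genes tested, of which 4 were lower. Of all genes, 2.5% were higher and 3.34% lower.

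Over all genes tested, 2.5% were higher and 3.34% lower in this comparison. Of 31 axon and cytoskeleton genes 9 were higher and 1 lower, with a median log2 ratio of 0.78. Gap43 had 1109 CPM in CVT-10216 and 970 CPM in DMSO selected neurons, against 371 CPM and 263 CPM. Stmn2b had 457 CPM in CVT-10216 and 372 CPM in DMSO selected neurons, against 111 CPM and 50.3 CPM. Maptb, a tau homologue, and dpysl3, a collapsin response mediator, were higher as well, with log2 ratios between 1.04 and 1.34. Of 27 channels and calcium-binding proteins 7 were higher and none lower, among them the sodium channel scn1laa (107 CPM in CVT-10216 and 124 CPM in DMSO, against 31.8 and 33.2 CPM) and the potassium channel kcnd2 (43.9 and 33.8 CPM, against 8.57 and 9.88 CPM). Of 34 synaptic vesicle and release genes 1 was higher, syt1a, and 2 were lower, and cadpsa, a priming factor gene of dense core granules listed with the granule genes, was higher too.

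None of 22 cell cycle genes was called between the selected neurons and the other phox2bb neurons, with log2 ratios of pcna of −0.07 in CVT-10216 and −0.11 in DMSO. Sox10 had log2 ratios of −0.24 in CVT-10216 and −0.19 in DMSO, and foxd3 −0.10 and −0.12. Of 19 crest progenitor genes 1 was higher and 3 lower, and of 12 glia markers none was higher and 2 were lower. Over all genes tested, 2.5% were higher and 3.34% lower. Plp1b, a myelin and glia marker, was nearly 0 (0.27 CPM in CVT-10216 and 0.14 CPM in DMSO selected neurons), but other glia markers were present. The 15 listed glia markers summed to 553 CPM in CVT-10216 and 312 CPM in DMSO selected neurons, against 914 and 443 CPM in other phox2bb neurons. At least 10 UMIs of them, unthinned, were held by 229 CVT-10216 (51.3%) and 140 DMSO selected neurons (30.6%).

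Some Hox genes, which mark position along the body axis, differed between the groups. Hoxa5a had 138 CPM in CVT-10216 and 152 CPM in DMSO selected neurons, against 41.1 CPM and 51.0 CPM in other phox2bb neurons. Hoxb5a did not pass 2-fold, at log2 ratios of 0.42 in CVT-10216 and 0.49 in DMSO. The more posterior hoxb7a (23.4 CPM in CVT-10216 and 7.43 CPM in DMSO, against 75.01 and 46.4 CPM) and hoxb8a (72.4 and 24.2 CPM, against 168 and 90.5 CPM) were lower. Over 45 Hox genes tested, 1 was higher and 5 lower, against 2.5% higher and 3.34% lower over all genes. The count of higher Hox genes was thus near that of all genes.

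**Figure D4:**
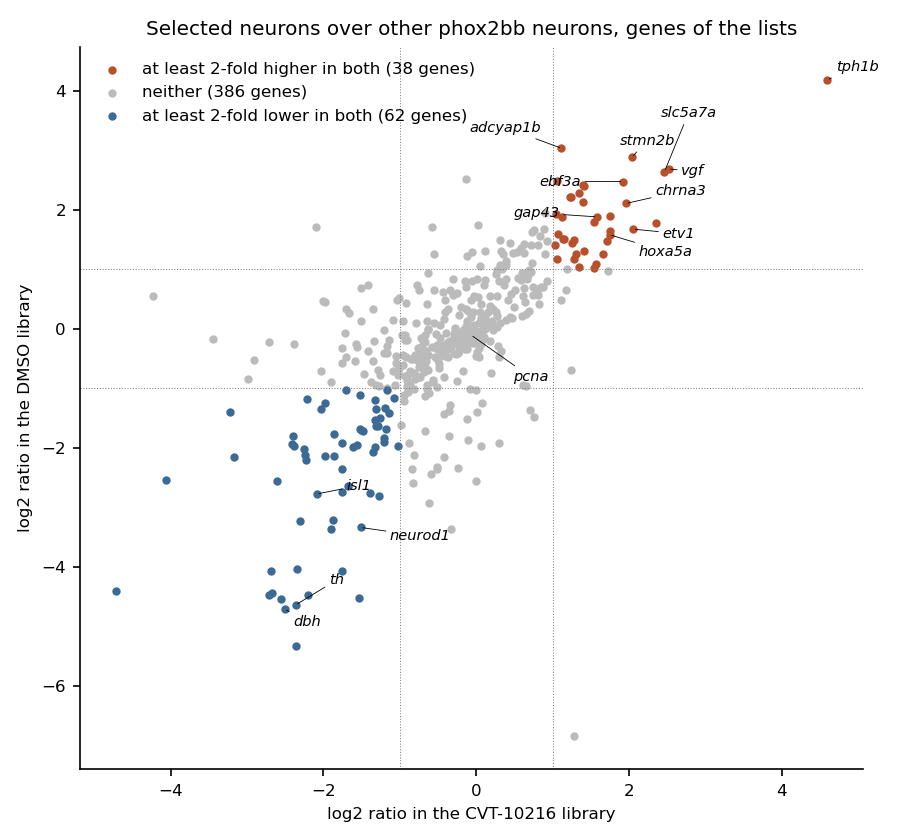
Log2 ratio of selected neurons over other phox2bb neurons in the CVT-10216 library (horizontal) and in the DMSO library (vertical) for the genes of the lists, with dotted lines at 2-fold. Of these genes 38 were at least 2-fold higher in both libraries, 62 at least 2-fold lower and 386 neither, with tph1b, vgf and etv1 among the higher and th and dbh among the lower.

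Beyond the lists, the genes with the highest ratios to the other phox2bb neurons were at low levels. Dkk1b, a secreted Wnt inhibitor, had 14.4 CPM in CVT-10216 and 9.24 CPM in DMSO selected neurons, against 0 UMIs and 0.27 CPM. Npffl, named as a gene of the neuropeptide FF family, had 14.8 CPM in CVT-10216 and 15.8 CPM in DMSO, against 0.45 CPM and 0.33 CPM. Xgb, globin X, had 50.01 CPM in CVT-10216 and 54.9 CPM in DMSO, against 1.43 CPM and 2.98 CPM. Ehd4, an endocytic ATPase, had 16.4 CPM in CVT-10216 and 18.5 CPM in DMSO, against 0.36 CPM and 0.33 CPM. Chrm5b, a muscarinic receptor, had 4.14 CPM in CVT-10216 and 3.68 CPM in DMSO, against 0.27 CPM and 0.07 CPM. Enam, in contrast, had 99.1% of its UMIs in 1 cell. The remaining genes of the 10 highest were CR392045.1, si:ch73-193i22.1, si:ch211-157j23.2 and slc8a1a, a sodium and calcium exchanger, and the 5 lowest were KCNV1, ftcd, pdzk1ip1, prok1 and sstr1a.

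To describe what went with single product genes, thinned selected neurons with at least 10 UMIs of the 4 genes were divided by whether they held vip, galn or nos1. Vip was found in 145 CVT-10216 cells and not in 106, and in 73 DMSO cells and not in 117, and 39 of 4103 genes (0.951%) were at least 2-fold higher and 22 (0.536%) at least 2-fold lower with it in both libraries. Galn was found in 122 of the CVT-10216 cells and 78 of the DMSO cells, with 21 genes (0.512%) higher and 5 (0.122%) lower. Nos1 was found in 202 of the CVT-10216 cells and 161 of the DMSO cells, with 116 genes (2.83%) higher and 6 (0.146%) lower. The cells with a gene also held more product RNA in all, in part by construction, since that sum includes the gene itself. The part of product RNA in the other differences was not tested. Medians were 58 UMIs with vip and 30 without in CVT-10216, and 85 and 33 in DMSO. For galn they were 58 with and 32 without in CVT-10216, and 70 and 33 in DMSO. For nos1 they were 55.5 with and 21 without in CVT-10216, and 51 and 16 in DMSO.

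Cells with vip held more pbx3b, a homeobox factor, at 219 CPM with vip and 35.4 CPM without in CVT-10216 and 264 CPM and 17.1 CPM in DMSO. Calb2b, which encodes the calcium buffer calretinin, had 122 CPM with vip and 25.9 CPM without in CVT-10216 and 212 CPM and 17.1 CPM in DMSO. Alk, a receptor tyrosine kinase, had 157 CPM with vip and 23.6 CPM without in CVT-10216 and 140 CPM and 36.3 CPM in DMSO. These 3 genes were higher with vip in both libraries, as was galn itself, at 2760 CPM with vip and 545 CPM without in CVT-10216 and 4438 CPM and 613 CPM in DMSO. Dkk1b (51.7 and 7.08 CPM in CVT-10216, 58.2 and 8.55 CPM in DMSO) and the growth factor gene mdkb (303 and 101 CPM in CVT-10216, 418 and 126 CPM in DMSO) were higher too. Nos1 was nearly equal with and without vip, at 931 and 932 CPM in CVT-10216 and 1346 and 1124 CPM in DMSO. Lower with vip were genes of skin and fin such as krt4, and1 and and2, and they no longer had enough UMIs to be tested when cells with 10 or more UMIs of another cell type's markers were left out.

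The same 3 genes, and dkk1b, were higher with galn. Dkk1b had 59.4 CPM with galn and 7.75 CPM without in CVT-10216 and 48.1 CPM and 13.4 CPM in DMSO. Calb2b had 111 CPM with galn and 54.3 CPM without in CVT-10216 and 147 CPM and 53.6 CPM in DMSO. Pbx3b had 223 CPM with galn and 64.0 CPM without in CVT-10216 and 228 CPM and 31.3 CPM in DMSO, and alk had 160 CPM and 44.6 CPM in CVT-10216 and 141 CPM and 31.3 CPM in DMSO. Ppp1r1b, a phosphatase inhibitor known as DARPP-32 in mammals, had 69.7 CPM with galn and 11.6 CPM without in CVT-10216 and 141 CPM and 22.3 CPM in DMSO. Pnoca, a nociceptin precursor gene, had 150 CPM with galn and 58.1 CPM without in CVT-10216 and 167 CPM and 35.7 CPM in DMSO. This peptide gene was not particular to galn cells. Its log2 ratios were 0.62 in CVT-10216 and 1.27 in DMSO with vip, and 0.96 and 1.75 with nos1. Prph, the intermediate filament peripherin, had 207 CPM with galn and 95 CPM without in CVT-10216 and 272 CPM and 71.4 CPM in DMSO.

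Cells with nos1 held more of a peptide gene and of a serotonin gene. Adcyap1b had 520 CPM with nos1 and 158 CPM without in CVT-10216 and 1006 CPM and 328 CPM in DMSO. Tph1b had 119 CPM with nos1 and 25.5 CPM without in CVT-10216 and 165 CPM and 43.1 CPM in DMSO, and xgb had 135 CPM and 35.7 CPM in CVT-10216 and 231 CPM and 43.1 CPM in DMSO. Slc6a5, the neuronal glycine transporter, had 47.0 CPM with nos1 and 5.10 CPM without in CVT-10216, and 65.2 CPM with nos1 and 0 UMIs without in DMSO. Only 49 CVT-10216 and 29 DMSO cells lacked nos1, so low levels without it rest on few UMIs. With vip, slc6a5 went opposite ways, at log2 ratios of 1.91 in CVT-10216 and −2.82 in DMSO. Hpcal4, a calcium sensor, had 86.6 CPM with nos1 and 15.3 CPM without in CVT-10216 and 115 CPM and 8.62 CPM in DMSO. Vipb was higher with nos1 as well, at 13108 CPM with and 5393 CPM without in CVT-10216 and 14893 CPM and 5379 CPM in DMSO.

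**Figure D5:**
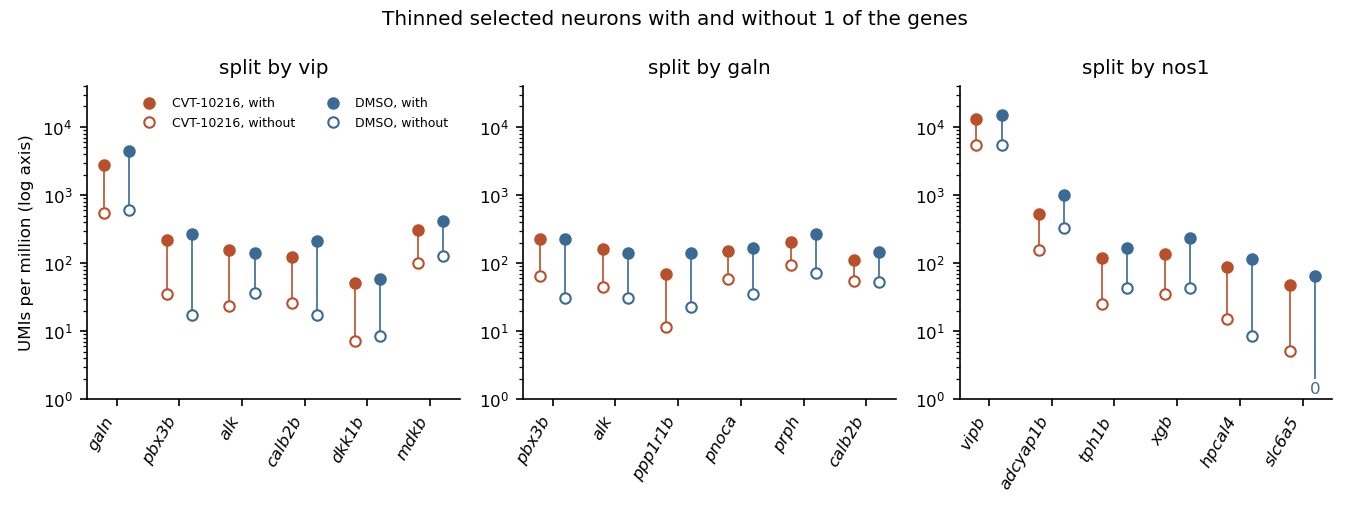
Levels in CPM (log axis) of 6 genes for each of 3 divisions of thinned selected neurons, by vip, by galn and by nos1, with filled points for cells that held the gene and open points for cells that did not, in both libraries. Pbx3b, alk and calb2b are higher with vip and with galn, and adcyap1b, tph1b and xgb are higher with nos1, such as 520 CPM of adcyap1b with nos1 against 158 CPM without in CVT-10216.

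The conditions were compared within the selected neurons as values of 1 library each. Of 12122 genes tested, 584 (4.82%) were at least 2-fold higher and 35 (0.289%) at least 2-fold lower in CVT-10216 than in DMSO, and the median log2 ratio of all genes was 0.11 with library totals and −0.02 with TMM factors. Vip was 2-fold higher in CVT-10216 by library totals (log2 ratio 1.06, 0.98 to 1.13) and just under 2-fold with TMM factors (0.93), and its log2 ratio was 0.68 among cells with at least 30 UMIs of the product genes. By division of product RNA, which includes vip itself, it had 22.6, 50.1, 162, 275 and 674 CPM in CVT-10216 and 20.3, 26.3, 77.9, 199 and 537 CPM in DMSO, in the order given above. The log2 ratios of the other product genes were 0.41 for vipb, 0.31 for galn and 0.15 for nos1. Among the cells with at least 30 UMIs they were −0.02 for vipb, −0.14 for galn and −0.23 for nos1, and the direction turned. By library totals, phox2bb (0.14), etv1 (−0.01), gap43 (0.19) and ret (0.12) differed less than vip, vipb and galn, and nos1 lay within their range.

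Among lists of neuronal function, most calls were higher in CVT-10216, as they were over all genes (4.82% higher and 0.289% lower). Many of these lists had few genes tested, and their shares were not tested against that of all genes. Of 6 other neuropeptide genes 3 were higher and 1 lower, and 3 of 5 monoamine genes, 4 of 15 transmitter receptors and 1 of 4 acetylcholine genes were higher, with none lower. Higher as well, with none lower, were 5 of 30 axon and cytoskeleton genes, 3 of 28 synaptic vesicle genes, among them the vesicle protein gene sypb (38.8 CPM in CVT-10216 and 17.2 CPM in DMSO), and 2 of 16 granule genes, among them chga, chromogranin A (40.2 CPM in CVT-10216 and 14.2 CPM in DMSO). Adcyap1b was lower by 0.31 on the log2 scale, and by 0.81 among cells with at least 30 product UMIs. None of 13 aldehyde-handling genes, 14 genes of de novo purine synthesis or 22 cell cycle genes was called, and the cell cycle list had a median log2 ratio of −0.22. Of 26 stress genes 1 was higher and 1 lower, hsp70.3, a heat shock chaperone, at 28.8 CPM in CVT-10216 and 60.6 CPM in DMSO.

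Part of the Hox genes and of the markers of other neuron types were higher in CVT-10216 selected neurons. Of 40 Hox genes 20 were higher, such as hoxb8a (72.4 CPM in CVT-10216 and 24.2 CPM in DMSO) and hoxb9a (58.95 CPM in CVT-10216 and 23.1 CPM in DMSO), while hoxb5a had 281 CPM in CVT-10216 and 394 CPM in DMSO. Of 9 tested sympathetic and chromaffin markers 5 were higher, with dbh at a log2 ratio of 2.72 and th at 2.88, and 6 of 10 sensory markers and 6 of 13 spinal neuron markers. Neurod1, a neurogenic factor, had 43.6 CPM in CVT-10216 and 7.29 CPM in DMSO, with 24.1% of its UMIs in 1 cell. Markers of other cell types moved with them, as 12 of 12 muscle, 6 of 10 epithelial and 5 of 9 pigment markers were higher. Of all genes, 4.82% were higher. Summed muscle markers, CVT-10216 before DMSO, were 215 and 41.8 CPM in selected and 441 and 58.5 CPM in other phox2bb neurons. They were 1175 and 253 CPM in neurons without phox2bb and 254 and 102 CPM in macrophage-marker cells. Sensory markers were also higher in other phox2bb neurons (466 and 182 CPM), but not in neurons without phox2bb (1133 and 1434 CPM). Pigment markers had 646 and 435 CPM in other phox2bb neurons. Cells with at least 10 UMIs of pigment, macrophage, muscle, epithelial or mesenchyme markers were 76 of the CVT-10216 selected neurons (17.0%) and 37 of the DMSO selected neurons (8.10%). Per cell, the summed muscle markers ranged up to 1111 UMIs in CVT-10216 (median 4, none of 14 genes at 0) and up to 37 UMIs in DMSO (median 1, none of 14 genes at 0). Without these cells 314 genes were higher and 19 lower, and gch2, a pteridine enzyme of pigment cells, had a log2 ratio of 0.59 in place of 2.50, and mitfa, the melanocyte factor, 0.15 in place of 3.05. The removal itself used pigment markers, so that a fall of pigment genes follows from it and shows nothing further.

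The 5 highest and 5 lowest ratios between conditions came mostly from 1 or 2 cells. Of the 5 highest, tnni2a.1 had 91.0% of its UMIs in 1 cell, col10a1a 98.9%, enam 99.1% and slc12a10.3 100%, and si:rp71-1c10.11 was found in 2 cells. Of the 5 lowest, pvalb5 had 96.2% of its UMIs in 1 cell, with 0 UMIs in CVT-10216 and 19.0 CPM in DMSO, and urp1, si:ch211-106h4.12, krt97 and aqp8b had 83.7% or more. Among genes with at most 20% of their UMIs in 1 cell, 469 were higher and 17 lower. Of these higher genes, CABZ01021592.1 had 958 CPM in CVT-10216 and 87.4 CPM in DMSO (log2 ratio 3.45, 3.37 to 3.54). It was found in 798 selected neurons, with 7.13% of its UMIs in 1 cell. The transgene GFP had 31.1 CPM in CVT-10216 and 6.21 CPM in DMSO selected neurons, and mCherry 16.1 CPM and 22.7 CPM, so that the transgene that marks crest derivatives was itself found at a low level in these cells.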

How the data were processed

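Sorted cells of 1 CVT-10216 and 1 DMSO library (10x Chromium 3′) were reanalysed from the UMI counts that the authors deposited, which are whole numbers without normalization. The submitters' processing notes name Cell Ranger 2.1.1 and Cell Ranger 3.1.0 and the assembly GRCz11. Entries for GFP and mCherry had been added and both libraries joined with the aggregation step of Cell Ranger, and whether it equalised depth is not given in the sources used here. The deposited counts cover 13360 barcodes and, after the authors' quality filter, 11283 cells, which were used. Libraries were told apart by the barcode suffix, 1 for DMSO and 2 for CVT-10216, which the methods' cell numbers match.

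Counts were read in Python 3.11.15 (numpy 2.4.6, scipy 1.17.1, pandas 2.3.3). Levels are summed UMIs as CPM, with exact Poisson intervals, and shares have exact Clopper-Pearson intervals. Log2 ratios used a pseudocount of 0.5 UMIs and genes with at least 50 summed UMIs. A call is a ratio of at least 2-fold, in both libraries where 2 groups of cells were compared. Cells were thinned to 4000 UMIs with a fixed seed. TMM factors came from edgeR 4.0.16 in R 4.3.3. Macrophage-marker cells held at least 5 UMIs of mpeg1.1, mfap4 and marco. No doublet caller was run.

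The members, comparison groups and gene lists were chosen with earlier results of these data known. The genes named are the rule genes and markers, up to 4 members of highest level and those past 2-fold of each list, and the 10 highest and 5 lowest genes against other phox2bb neurons and 5 at each end between conditions, some of them given as counts only. The divisions by product RNA and by vip, galn and nos1, and the genes named from them, were chosen after their values were seen. So were CABZ01021592.1, tlx2, plp1b, pcsk1, pcsk2 and other genes given beside the called members of a list. Alternatives were TMM factors, other minimums of UMIs, equal weight for each cell, thinned cells, other member rules and the removal of cells with another type's markers. Cells with at least 30 product UMIs and genes with at most 20% of their UMIs in 1 cell were added after seeing the data.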

Additional observations from a re-analysis of the deposited data

Results flagged for a closer look

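Among the barcodes that the authors' quality filter left out, which enter no comparison above, 0 of 1171 in the CVT-10216 library met the member rule (up to 0.256% by the limit of 3 counts), and 5 of 906 (0.552%, 0.179 to 1.28) did in the DMSO library. These 5 barcodes held between 503 and 873 UMIs, with a median of 14 UMIs of vip, vipb, galn and nos1. The ratio of selected neurons to other phox2bb neurons ran in opposite directions in the libraries for 2 listed genes, and the differences were not tested. Prrx1a, a mesenchyme factor with 52 UMIs in all, had a log2 ratio of −2.09 in CVT-10216 and 1.71 in DMSO. Vsx1, a spinal and retinal interneuron factor with 292 UMIs, had log2 ratios of 1.28 in CVT-10216 and −6.85 in DMSO.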

How the results depend on the processing

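No paired analysis was possible because each condition has 1 library, and for the same reason no library could be left out. The log2 ratio of the shares of selected neurons, CVT-10216 over DMSO, lay between −0.78 and −0.52 under the other member rules, at −0.40 when cells were thinned before the rule and at 0.23 as a share of phox2bb neurons, against −0.63. At least 2 product genes were held by 93.5% of CVT-10216 and 90.8% of DMSO cells at a sum of at least 5, by 67.4% and 54.6% after thinning, and by 80.5% and 67.4% where 2 UMIs were asked of a gene. The 619 genes past 2-fold between conditions became 1227 with at least 20 summed UMIs, 370 with at least 100, 152 in thinned cells and 333 without cells that held other types' markers. Thinned cells gave 499 genes in place of 812 against other phox2bb neurons and 1613 in place of 3729 against neurons without phox2bb, with fewer genes tested. With a thinned sum of at least 3 in place of 10, the division by vip gave 105 genes in place of 61, by galn 46 in place of 26 and by nos1 328 in place of 122. Without cells that held other types' markers, the ratio between conditions turned for slc12a10.3 (−0.026), enam (−0.76), col10a1a (−0.026), krt97 (1.56) and aqp8b (0.18, and 1.51 at a sum of at least 30), and the ratio to other phox2bb neurons for slc12a10.3 (−1.05) and krt97 (−3.11). Of 138 named genes, the sign of the ratio between conditions changed for 13 with TMM factors, 23 with equal weight for each cell, 23 in thinned cells, 24 at a sum of at least 30 and 11 without cells that held other types' markers. Of 143 named genes, that of the ratio to other phox2bb neurons changed for 6, 6, 4, 3 and 7 under these settings. Depth limits the combinations, since genes such as vip and galn had medians of 1 or 0 UMIs per cell.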
